A study of Homo sapiens with 6 samples.

Results

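The genes described here encode 41 subunits of the Polycomb and COMPASS complexes, chosen by name and matched among the 60240 genes of the count table through their Ensembl identifiers. COMPASS contributed 15 of them, Polycomb repressive complex 2 (PRC2) 9 and Polycomb repressive complex 1 (PRC1) 17. Their RNA was measured by RNA-seq of polyadenylated RNA in HCT116, a human colorectal carcinoma cell line, with 3 wild-type (WT) and 3 LSD1 knockout (LSD1 KO) libraries. LSD1 KO cells had been made by transient transfection of a Cas9 plasmid aimed at exon 1 of LSD1, puromycin selection and expansion of individual clones. The methods state in general that experiments were done with biological replicates. How the cultures or clones behind these RNA-seq libraries were separated is not given in the sources used here, so p-values measure only the spread between the libraries, which may be technical in part. Both groups share the parental line, and the labels list no treatment for either.

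COMPASS complexes methylate lysine 4 of histone H3. Each holds 1 of the methyltransferases KMT2A, KMT2B, KMT2C, KMT2D, SETD1A or SETD1B on a shared core of WDR5, ASH2L, RBBP5 and DPY30. PRC2 methylates lysine 27 of histone H3 through EZH1 or EZH2, and PRC1 attaches ubiquitin to histone H2A through RING1 or RNF2. Promoters that carry the marks of both systems at once are called bivalent, and LSD1, encoded by KDM1A, removes methyl groups from lysine 4 of histone H3. The comparison of LSD1 KO with WT cells therefore asks whether the RNA of the enzymes that write these marks differed once the eraser was lost.

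Library sizes lay between 25379279 and 29186963 counts. Levels are given as CPM, which are counts scaled to library size with TMM factors. The floor was set at 3 counts, or 0.0994 to 0.114 CPM depending on the library, and covers counting error only. KDM1A (chr1:23019468-23083689, GRCh38.p14) had 231, 224 and 214 CPM in WT replicates 1, 2 and 3 and 29.9, 27.6 and 27.8 CPM in LSD1 KO replicates 1, 2 and 3. It fell to 12.7% of the WT mean (log2 fold change -2.97, SE 0.15, q = 0.000451, edgeR), in keeping with the labels of all 6 libraries. All 6 epithelial markers were present, with summed levels of 2119.2 to 3944.5 CPM in WT and 2524.7 to 3318.0 CPM in LSD1 KO libraries. Against the WT mean, 4 of the 6 were lower in LSD1 KO and 2 higher. EPCAM was lower in all LSD1 KO libraries, at 51.1% of the WT mean (blocked log2 fold change -0.98, SE 0.20, edgeR q = 0.0788, against q = 0.668 without the block). KRT18 was also lower in all LSD1 KO libraries, at 70.7% (edgeR q = 0.230 with the block), CDH1 was at 79.2% and lower in 3 of 3 pairs (edgeR q = 0.196 with the block), and KRT8 was at 87.4%. DESeq2 gave EPCAM a q of 0.0508 without the block and 0.162 with it. KRT19 and CLDN4 were at 134% and 126% of the WT mean and higher in 3 of 3 pairs, and DESeq2 with the block called both (q = 0.00373 and 0.0473), while edgeR with the block did not (q = 0.123 and 0.139). Of the fibroblast markers 1 of 6 reached 1 CPM (COL1A1), with LUM at 0, and their sums were 20.5 to 24.2 CPM in WT and 30.3 to 34.4 CPM in LSD1 KO. COL1A1 itself was higher in all LSD1 KO libraries (blocked log2 fold change 0.52, SE 0.098, edgeR q = 0.0628, and not called without the block). Of the leukocyte markers 1 of 5 reached 1 CPM (LYZ), with CD3E at 0 and sums of 0.795 to 1.16 CPM in WT and 1.36 to 1.93 CPM in LSD1 KO. Of the 3 endothelial markers matched 1 reached 1 CPM (VWF), with sums of 0.530 to 1.09 CPM in WT and 0.966 to 2.04 CPM in LSD1 KO. The part of these markers in the values below was not tested, and in bulk RNA fewer cells of a type and less RNA per cell cannot be told apart.

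All 41 subunits were expressed in every library and passed the filter on low counts. Their mean levels ran from 18.8 CPM for PCGF1, the PCGF subunit of the BCOR-containing PRC1.1 complex, to 197 CPM for CBX6, a chromobox reader of PRC1. The median of the 41 was 50.5 CPM, against 17.6 CPM over the 17672 genes tested. Counts grow with transcript length, so levels of different genes were compared per kilobase of the canonical transcript (CPM per kb). On that scale the WT median of the subunits was 12.8 CPM per kb, against 5.32 over the 17459 tested genes with a known length.

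Per kilobase, the enzymes of COMPASS stood below the subunits of its core. The 6 methyltransferases had a WT median of 6.07 CPM per kb, from 3.06 ± 1.04 (SD, n = 3) for KMT2C to 8.83 ± 1.70 for SETD1A. The 4 core subunits had a median of 24.6 CPM per kb and were led by DPY30 at 37.3 ± 8.60 and WDR5 at 32.7 ± 2.11, the latter a WD40 scaffold. MEN1, the menin subunit that joins KMT2A and KMT2B complexes, stood at 33.2 ± 2.71 CPM per kb, and KDM6A, the demethylase of lysine 27 carried by KMT2C and KMT2D complexes, at 5.10 ± 0.849. These are levels of RNA per length, and the canonical transcript need not be the one most used in HCT116.

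In PRC2, EZH2 was the predominant enzyme, at 41.3 ± 5.68 CPM per kb in WT against 6.56 ± 1.03 for EZH1, with no overlap between their libraries. SUZ12 and EED, which hold the enzyme in the complex, reached 27.3 ± 5.64 and 16.9 ± 1.99 CPM per kb. The accessory subunits, which direct PRC2 to chromatin, lay between 7.12 ± 1.49 for JARID2 and 16.3 ± 2.15 for PHF1. In PRC1, RING1 (25.2 ± 5.66) stood above RNF2 (10.99 ± 0.416). BMI1 was the highest of the 6 PCGF genes (30.7 ± 1.91), CBX6 of the 4 CBX genes (33.5 ± 3.60) and PHC2 of the 3 PHC genes (42.4 ± 7.28). PHC2 also had the highest WT level of all 41, followed by EZH2 and DPY30, and KMT2C had the lowest, preceded by SETD1B and KDM6A. When the 41 WT levels were ordered, adjacent genes differed by more than the sum of their SDs at 1 place only, between RNF2 at rank 25 and SETD1A below it.

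**Figure D1:**
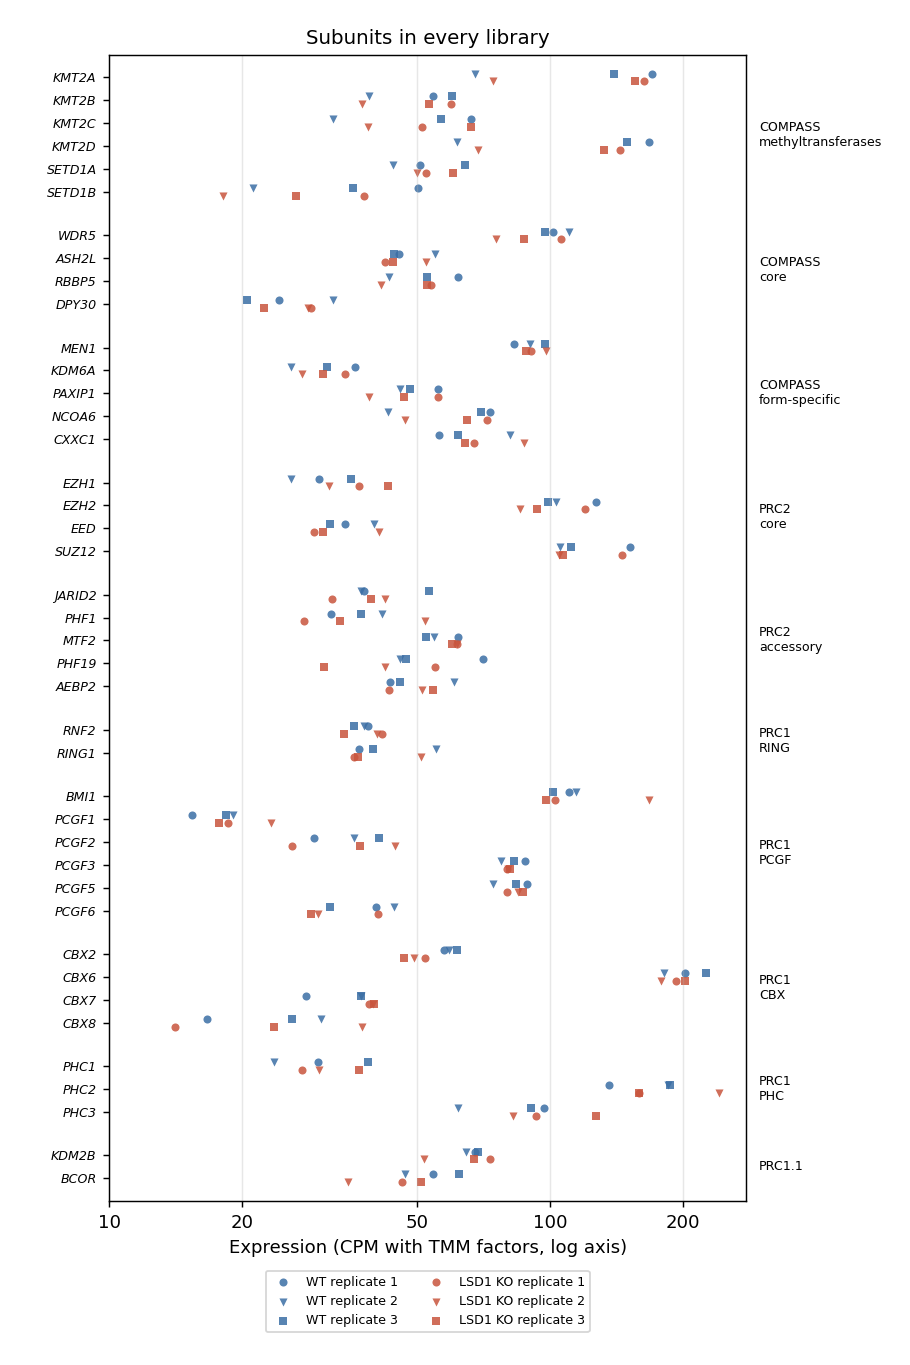
Expression of the 41 subunits in every library, by complex, as CPM with TMM factors on a log axis. Colours mark the group and symbols the replicate number, 1 point per library. The 2 groups overlap in 39 of the 41 genes, and the replicate 2 libraries of KMT2A, KMT2D and SETD1B lie to the left of the others in both groups.

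Promoter sequences of 34 of the 41 subunits were found in RefSeq (GRCh38.p14), as the 250 bases before and the 50 bases after the start of transcription. The motif CG was counted because KMT2A, KMT2B, CXXC1 and KDM2B each carry a CXXC zinc finger, a domain that binds unmethylated CG. A CG reads the same on both strands, and each was counted once. Several genes have more than 1 promoter listed, and only the first listed promoter of each gene entered these counts. Those of the subunits held a median of 28 CG, from 2 to 56, against a median of 14 over the first listed promoters of 27305 genes. At least 10 CG were found in 31 of the 34 (91.2%), against 56.0% of the 27305. Those 27305 were not limited to genes expressed in these libraries, whereas all 41 subunits were expressed. A share over expressed genes only was not computed. The 3 below 10 were PCGF2 with 2 CG and no other promoter listed, and WDR5 and BCOR with 6 and 7, whose later listed promoters held up to 45 and 29. The 4 promoters printed here belong to the PRC2 enzymes, whose shares differed in the same direction in every replicate pair, and to KMT2A and KMT2D, which had the largest differences between replicates 2 and 1 before a length and GC correction. CG is in capitals, and each is written 5′ to 3′ on the strand of its gene.
EZH1 (chr17:42744991-42745290, minus strand, 30 CG): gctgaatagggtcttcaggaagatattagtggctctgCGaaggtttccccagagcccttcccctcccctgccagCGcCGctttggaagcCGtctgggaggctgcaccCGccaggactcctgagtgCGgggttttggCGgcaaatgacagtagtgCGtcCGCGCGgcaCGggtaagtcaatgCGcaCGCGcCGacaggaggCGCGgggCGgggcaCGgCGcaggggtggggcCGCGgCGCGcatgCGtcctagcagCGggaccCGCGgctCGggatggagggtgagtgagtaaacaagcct
EZH2 (chr7:148884242-148884541, minus strand, 46 CG): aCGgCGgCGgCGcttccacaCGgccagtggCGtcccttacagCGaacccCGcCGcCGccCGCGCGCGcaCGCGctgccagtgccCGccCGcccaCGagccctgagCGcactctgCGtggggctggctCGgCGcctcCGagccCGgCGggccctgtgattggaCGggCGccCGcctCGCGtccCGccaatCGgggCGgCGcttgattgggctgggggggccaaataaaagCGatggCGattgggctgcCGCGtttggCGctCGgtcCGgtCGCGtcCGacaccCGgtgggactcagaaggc
KMT2A (chr11:118436242-118436541, plus strand, 36 CG): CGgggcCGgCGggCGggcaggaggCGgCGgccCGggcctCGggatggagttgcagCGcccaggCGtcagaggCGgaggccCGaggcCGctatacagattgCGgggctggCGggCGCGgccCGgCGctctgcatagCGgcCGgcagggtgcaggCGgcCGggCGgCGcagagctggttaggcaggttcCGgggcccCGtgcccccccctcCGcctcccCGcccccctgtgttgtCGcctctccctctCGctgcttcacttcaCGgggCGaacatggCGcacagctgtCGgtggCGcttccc
KMT2D (chr12:49060745-49061044, minus strand, 27 CG): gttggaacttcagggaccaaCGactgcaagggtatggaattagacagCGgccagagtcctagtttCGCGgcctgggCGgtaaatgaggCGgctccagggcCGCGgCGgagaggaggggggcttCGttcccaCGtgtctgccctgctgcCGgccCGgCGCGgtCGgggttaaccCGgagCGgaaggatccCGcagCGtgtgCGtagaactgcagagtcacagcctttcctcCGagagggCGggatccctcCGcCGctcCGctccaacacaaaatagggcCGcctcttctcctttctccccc
Methylation of these promoters is not part of the count table, so the letters are a description only.

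Between LSD1 KO and WT libraries, none of the 41 subunits was called at a q value under 0.1. edgeR called 0 of them without a replicate block, where 0.00566% of all genes tested were called, and 0 had an unadjusted p under 0.05, against 3.12% of all genes. DESeq2 called 0 as well, against 0.376% of all genes, and gave 0 subunits an unadjusted p under 0.05, against 1.96%. Libraries of equal replicate number deviated together in both groups, so the replicate number was also held as a block. With the block edgeR called 0 subunits, against 1.6% of all genes, and DESeq2 0, against 4.21%. In that edgeR fit 6 subunits (14.6%) had an unadjusted p under 0.05, against 13.4% of all genes. DESeq2 with the block gave the same 6 an unadjusted p under 0.05, against 5.27% of a wider set of 33857 genes that includes those edgeR's filter removed for low counts. EZH1 and PHC3 were higher in LSD1 KO (4.88% of the subunits, against 7.24% of all genes), and SETD1B, PHF19, CBX2 and BCOR were lower (9.76%, against 6.19%).

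The size of any difference could be bounded for most subunits. With the block, the 95% interval of the fold change lay within 2-fold for all 41 and within 1.5-fold for 39. Its outermost bounds were -0.63 on the log2 scale for PHF19 (1.54-fold lower) and 0.55 for PHC3 (1.47-fold higher). Without the block the interval lay within 2-fold for 39 and within 1.5-fold for 21, and it reached -1.18 for SETD1B (2.27-fold lower). The median log2 fold change of the subunits was -0.018, with 19 positive and 22 negative, against 0.00082 over all genes. By complex the medians were -0.018 in COMPASS, -0.047 in PRC2 and 0.028 in PRC1. The median size of the change, without its sign, was 0.083 over the subunits and 0.157 over all genes. The subunits also had a smaller median SE without the block (0.194, against 0.261) and a higher median level (50.5 CPM, against 17.6). What precision and level contributed to the smaller size was not tested.

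**Figure D2:**
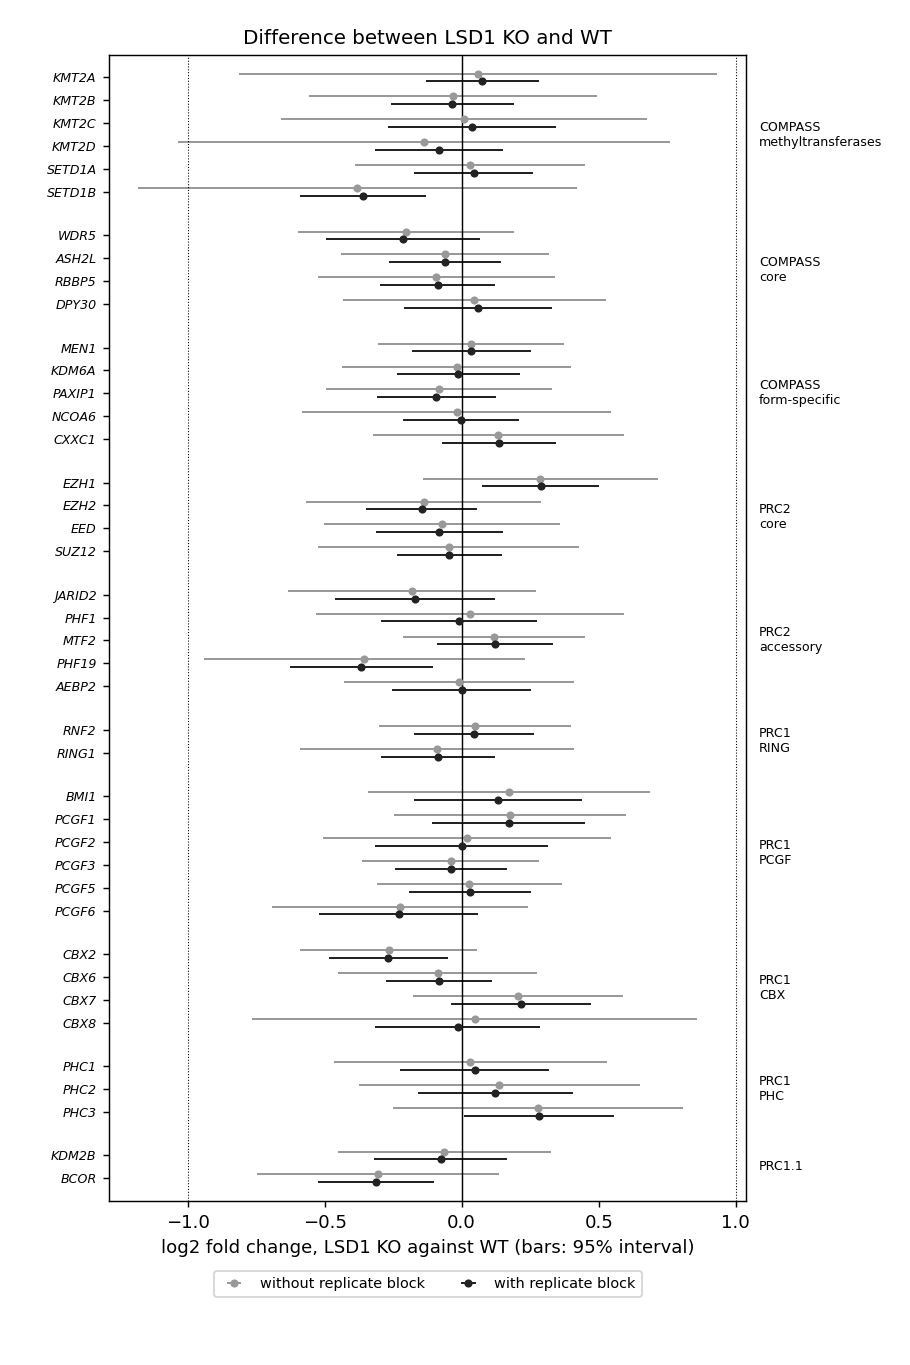
Log2 fold change of each subunit between LSD1 KO and WT libraries, without (grey) and with (black) the replicate block. Points are edgeR estimates, bars 95% intervals and dotted lines 2-fold. The black bars lie within 2-fold for all 41 subunits, and the grey bars of SETD1B and KMT2D reach past it.

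Among the COMPASS methyltransferases, SETD1B differed most between the groups when all libraries were included. Without WT replicate 1 its log2 fold change was -0.053 (edgeR without the block). In that fit KMT2A (0.34), KMT2C (0.23) and KMT2D (0.12) differed more, and KMT2B (0.015) and SETD1A (4.7e-05) less. SETD1B, whose product carries bulk trimethylation of lysine 4 together with SETD1A, had 50.2, 21.2 and 35.8 CPM in WT replicates 1, 2 and 3 and 37.8, 18.1 and 26.5 CPM in LSD1 KO. The groups overlapped, but each LSD1 KO library was below the WT library of its number. Its log2 fold change was -0.38 (SE 0.35) without the block and -0.36 (SE 0.10, q = 0.181) with it, both from edgeR. In fits chosen after the data were seen it passed the threshold, with the block and a correction for transcript length and GC content (-0.41, edgeR q = 0.0891, where 2.36% of all genes and 1 subunit were called) and with the block but without replicate pair 2 (-0.44, edgeR q = 0.0281). SETD1A, its paralog, had 50.6, 44.1 and 64.1 CPM in WT and 52.3, 49.8 and 60.2 CPM in LSD1 KO (log2 fold change 0.031, SE 0.18).

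The remaining methyltransferases were set apart by library rather than by group. KMT2A, the MLL1 enzyme, had 170.0, 67.7 and 139.7 CPM in WT and 163, 74.1 and 156 CPM in LSD1 KO. KMT2B, its paralog, had 54.2, 38.9 and 59.97 CPM in WT and 59.5, 37.5 and 53.004 CPM in LSD1 KO. For both, replicate 2 was the lowest library in each group. KMT2C, which with KMT2D places monomethylation at enhancers, had 66.2, 32.1 and 56.7 CPM in WT and 51.3, 38.6 and 66.03 CPM in LSD1 KO. KMT2D had 168, 61.5 and 149.8 CPM in WT and 144, 68.7 and 132 CPM in LSD1 KO, again with replicate 2 lowest in both groups. Their log2 fold changes without the block were 0.059 (SE 0.38) for KMT2A, -0.031 (SE 0.23) for KMT2B, 0.0089 (SE 0.29) for KMT2C and -0.14 (SE 0.39) for KMT2D. With the block, which removes the difference between replicate numbers, the SEs fell to 0.089, 0.098, 0.13 and 0.10, and the p-values (edgeR) ranged from 0.418 to 0.786. KMT2A shares 21.8% of its 31-base words with other genes, chiefly ENSG00000285827 (0.696 to 2.95 CPM) and KMT2C 10.0% with others, chiefly BAGE2 (0 to 0.147 CPM), so their counts could be split differently by another counter.

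The other 9 COMPASS subunits had log2 fold changes between -0.20 for WDR5 and 0.13 for CXXC1, the CG-binding subunit of the SETD1 complexes. The p-values of these 9 with the block ranged from 0.118 to 0.975 in edgeR, the highest for NCOA6, a coactivator found in KMT2C and KMT2D complexes. CXXC1 was higher in LSD1 KO in every replicate pair, and ASH2L and PAXIP1, the latter a BRCT-domain protein of the KMT2C and KMT2D complexes, were lower in every pair. DPY30, the small subunit that docks on ASH2L, shares 16.4% of its 31-base words with other genes, chiefly ENSG00000256843, which was listed at 0 in all libraries. Over all 41, 3 subunits were higher in every pair (7.32%, against 18.8% of all genes) and 10 were lower (24.4%, against 17.5%).

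In PRC2, EZH1 had 29.9, 25.9 and 35.4 CPM in WT replicates 1, 2 and 3 and 36.9, 31.6 and 42.8 CPM in LSD1 KO. Each LSD1 KO library lay above the WT library of the same number, by 0.30, 0.29 and 0.28 on the log2 scale, while the groups overlapped. The log2 fold change was 0.29 (SE 0.19) without the block and 0.29 (SE 0.093, edgeR q = 0.234) with it. EZH2, the enzyme prevalent in dividing cells, had 127, 103 and 99.1 CPM in WT and 120.0, 85.5 and 93.4 CPM in LSD1 KO. It lay lower in each pair, by -0.082, -0.27 and -0.085, with a log2 fold change of -0.15 (SE 0.088, edgeR q = 0.532) in the blocked fit. EED, the subunit that reads trimethylated lysine 27, and SUZ12, the platform of the complex, had log2 fold changes of -0.072 (SE 0.19) and -0.047 (SE 0.21). SUZ12 shares 13.7% of its 31-base words with other genes, chiefly the pseudogene SUZ12P1, which had 11.5 to 16.9 CPM in these libraries.

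Among the accessory subunits PHF19 differed most. PHF19, a Tudor-domain protein of the same family as PHF1 and MTF2, had 70.4, 45.8 and 47.2 CPM in WT and 54.9, 42.1 and 30.7 CPM in LSD1 KO, and was lower in each pair. Its log2 fold change was -0.37 (SE 0.11, edgeR q = 0.217) with the block. Without replicate pair 2 it reached -0.50 (SE 0.11, edgeR q = 0.00929). In that fit 5.85% of all genes and 3 subunits (7.32%) were called, all 3 lower in LSD1 KO. They were PHF19, SETD1B and JARID2, a cofactor that binds PRC2 through a methylated lysine of its own, at -0.36 (SE 0.12, edgeR q = 0.0891). Over all pairs JARID2 had a blocked log2 fold change of -0.17 (SE 0.13, edgeR q = 0.611), and its pairs differed by -0.25, 0.17 and -0.44, so the pair left out was the only one in which it was higher in LSD1 KO. JARID2, CBX2 and BMI1 are given by library or by fit here after their values were seen. PHF1, MTF2 and AEBP2 had log2 fold changes of 0.032, 0.12 and -0.0090 without the block.

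In PRC1, the catalytic RNF2 had 38.6, 37.8 and 35.9 CPM in WT and 41.6, 40.5 and 34.1 CPM in LSD1 KO, and its paralog RING1 36.8, 55.1 and 39.6 CPM and 35.9, 51.1 and 36.6 CPM. RNF2 overlapped between the groups (log2 fold change 0.049, SE 0.15). RING1 was lower in each pair, with overlap between the groups (log2 fold change -0.090, SE 0.22). The 6 PCGF genes, which define the forms of PRC1, ran from -0.23 for PCGF6 to 0.18 for PCGF1. BMI1, the PCGF subunit of canonical PRC1 together with its paralog PCGF2, had 111, 114 and 101 CPM in WT and 102, 167 and 98.02 CPM in LSD1 KO, with LSD1 KO replicate 2 above the other libraries (log2 fold change 0.17, SE 0.22). It shares 27.7% of its words with other genes, chiefly the readthrough gene COMMD3-BMI1 (0.340 to 1.62 CPM). PCGF6 shares 21.1% of its 31-base words with other genes, chiefly the pseudogene PCGF7P, which stayed at 0 to 0.0379 CPM.

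The chromobox readers held the only 2 subunits whose groups did not overlap (4.88%, against 7.74% of all genes). CBX7 had 27.99, 37.3 and 37.3 CPM in WT and 38.8, 39.6 and 39.9 CPM in LSD1 KO, so that all LSD1 KO libraries were higher (2.44% of the subunits, against 4.23% of all genes higher without overlap). CBX2 had 57.3, 58.9 and 61.4 CPM in WT and 51.96, 49.1 and 46.6 CPM in LSD1 KO, so that all LSD1 KO libraries were lower (2.44%, against 3.51%). Both bind trimethylated lysine 27. The log2 fold change of CBX2 was -0.27 (SE 0.14) without the block, and its blocked value was -0.27 (edgeR q = 0.275). For CBX7 the blocked value was 0.22 (SE 0.11, edgeR q = 0.448). CBX6 and CBX8 had log2 fold changes of -0.087 and 0.047 without the block.

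The polyhomeotic gene PHC3, whose family links PRC1 complexes through SAM domains, had 96.8, 61.9 and 90.4 CPM in WT and 93.01, 82.2 and 127 CPM in LSD1 KO. Its LSD1 KO replicate 3 was the highest of the 6 libraries and its WT replicate 2 the lowest, and the groups overlapped. The blocked log2 fold change was 0.28 (SE 0.12, edgeR q = 0.357). Without replicate pair 1 it was 0.45 (SE 0.11, edgeR q = 0.0959), and PHC3 was the 1 subunit called in a fit that called 2.4% of all genes. PHC1 and PHC2 stood at 0.032 and 0.14 without the block. PHC1 shares 51.8% of its 31-base words with other genes, chiefly the pseudogene PHC1P1 (0.492 to 2.84 CPM), so its counts could be split differently by another counter.

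Of the PRC1.1 subunits, BCOR, a corepressor that binds PCGF1, had 54.2, 46.9 and 62.2 CPM in WT and 46.2, 34.9 and 50.9 CPM in LSD1 KO. Each LSD1 KO library was below its pair, by -0.23, -0.43 and -0.29 on the log2 scale, and the groups overlapped. The blocked log2 fold change was -0.31 (SE 0.092, edgeR q = 0.196). KDM2B, the CG-binding subunit of the same complex, had a log2 fold change of -0.063 (SE 0.17).

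Paralogs can replace each other in these complexes, so the share of each family's CPM per kb taken by a given paralog was compared. EZH1 took 11.9, 12.6 and 16.96% of the EZH1 and EZH2 total in WT replicates 1, 2 and 3 and 14.98, 17.5 and 20.8% in LSD1 KO. The mean went from 13.8% ± 2.76 (SD, n = 3) to 17.7% ± 2.91 (SD, n = 3), higher in 3 of 3 pairs, with overlap between the groups (p = 0.2, two-sided exact permutation test, n = 3 per group). The share of SETD1B in the SETD1A and SETD1B total went from 31.4% ± 8.42 (SD, n = 3) to 25.8% ± 6.94 (SD, n = 3), lower in 3 of 3 pairs (exact permutation p = 0.5). Without WT replicate 1 this difference shrank from -5.62 to -0.83 percentage points. CBX2 took 21.7, 21.3 and 19.95% of the total of 4 CBX genes in WT and 19.96, 17.7 and 16.9% in LSD1 KO, also lower in 3 of 3 pairs (exact permutation p = 0.2). The share of MTF2 among PHF1, MTF2 and PHF19 was 32.9, 31.3 and 31.5% in WT and 37.2, 31.2 and 39.96% in LSD1 KO (exact permutation p = 0.4). RING1 took 65.1, 74.04 and 68.4% of the RING1 and RNF2 total in WT and 62.8, 71.2 and 67.8% in LSD1 KO, lower in 3 of 3 pairs as well (exact permutation p = 0.6). The shares of KMT2B, KMT2C, RING1, PHC1 and of BMI1 with PCGF2 differed by -1.92 to 1.94 percentage points, with p from 0.6 to 0.9 in the exact permutation test. Over the 9 shares the adjusted p was 0.9 for each. When shares were taken from raw counts, without length, the groups did not overlap for CBX2 (-2.34 percentage points) and MTF2 (5.40 percentage points), each at the smallest p the design allows (exact permutation p = 0.1). Groups of 3 libraries allow no p below 0.1, and the same-number pairing did not enter this test.

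**Figure D3:**
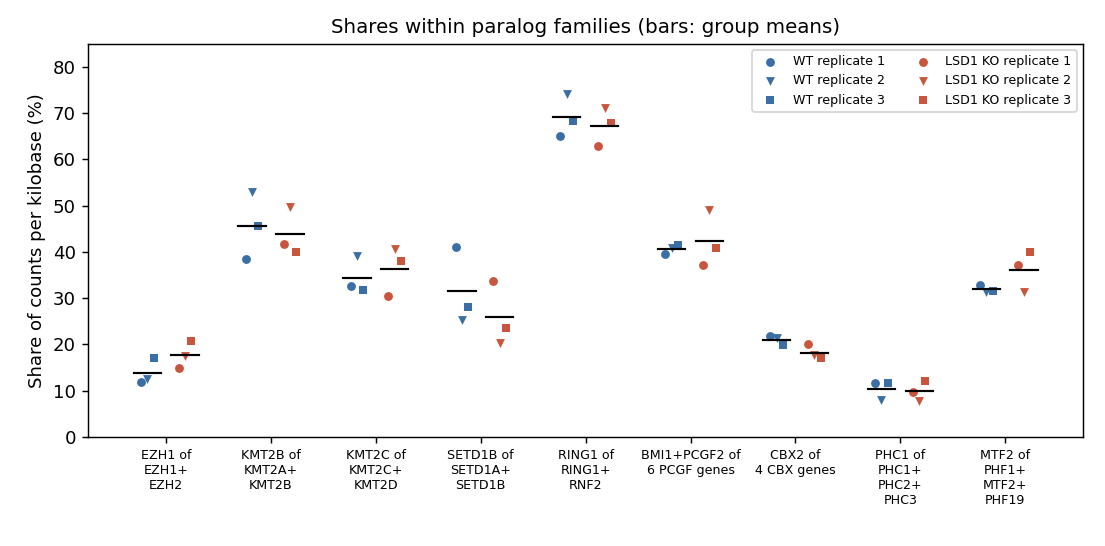
Share of CPM per kilobase taken by 1 paralog, or by BMI1 and PCGF2, within its family in each library. Colours mark the group, symbols the replicate number and bars the group means. EZH1 was higher in LSD1 KO in all 3 pairs and SETD1B, RING1 and CBX2 lower in all 3, and on this scale the 2 groups overlap in all 9 families.

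Library, in contrast to genotype, separated the subunits clearly. edgeR's joint test of all replicate numbers called 26 of the 41 (63.4%), against 41.2% of all genes. The q values given below with differences between replicates 2 and 1 come from this joint test, and replicate 2 was not tested against replicate 1 alone. KMT2A differed by -1.23 between replicates 2 and 1 on the log2 scale (edgeR q = 0.00194) and KMT2D by -1.25 (edgeR q = 0.00231), whereas their differences between the groups were 0.059 and -0.14. SETD1B differed by -1.15 (edgeR q = 0.00298), and CBX8, a chromobox reader, went the other way by 1.14 (edgeR q = 0.00611). PHF1 (0.66) and RING1 (0.54) were also highest in replicate 2 of both groups. PCGF2 differed by 0.55 between replicates 2 and 1 and by 0.50 between replicates 3 and 1, with replicate 1 lowest in both groups. All 6 methyltransferases of COMPASS passed this test. In 14 subunits both replicate 2 libraries lay below every library of replicates 1 and 3 in either group (34.1%, against 20.9% of all genes). In 8 both lay above every such library (19.5%, against 19.5%).

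The direction of this difference went with transcript length. All 6 subunits with a canonical transcript of 8 kb or more (KMT2A, KMT2B, KMT2C, KMT2D, SETD1B and PHC3) were lower in replicate 2 than in replicate 1, with a median of -0.95, against -0.39 over the 1238 genes of that length. Of the 18 between 4 and 8 kb, 15 were lower (median -0.13, against -0.17 over all genes), and of the 17 under 4 kb only 5 (median 0.32, against 0.11). Across the 41 genes this difference had Pearson's r of -0.67 and Spearman's rho of -0.67 with log2 length. Across 17459 genes they were -0.14 and -0.24. These correlations are across genes of the same libraries, which are not independent replicates. How length goes with GC content was not tested. The COMPASS methyltransferases had a median length of 12578.5 bases, against 3037.5 for the COMPASS core and 4367 over all 41 subunits. After a correction for length and GC content, chosen after the data were seen, 15 subunits (36.6%) were called for the replicate number, against 34.9% of all genes. KMT2A then stood at -0.66, KMT2D at -0.95, SETD1B at -1.22 and CBX8 at 1.05. Their q values in the joint test of the replicate numbers were 0.0108, 0.00554, 0.00336 and 0.0125 (edgeR). KMT2C was no longer called (-0.14, edgeR q = 0.583 in the joint test).

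**Figure D4:**
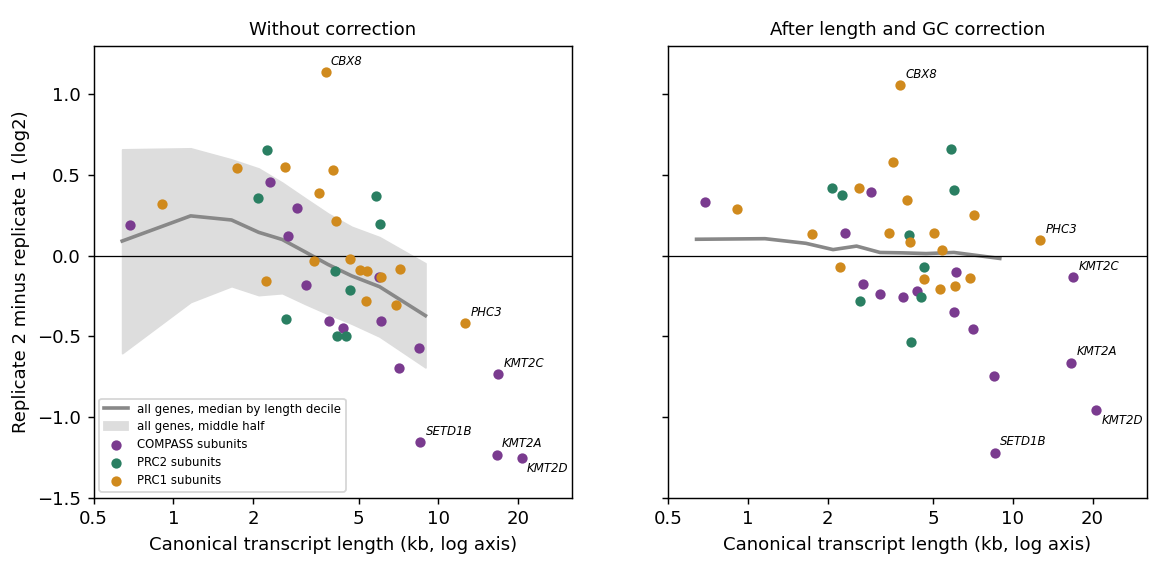
Difference between replicates 2 and 1 (log2, averaged over the 2 groups by the edgeR fit) of each subunit against the length of its canonical transcript (log axis), before (left) and after (right) the length and GC correction. Grey shows the median over all genes by length decile and, on the left, their middle range. Before the correction KMT2A, KMT2D and SETD1B lie below -1 and CBX8 above 1, and all 6 subunits of 8 kb or more lie below 0.

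Other genes of the pathway gave no call between the groups either. Of 44 further subunits of these complexes 42 were tested, and of 5 demethylases of lysines 4 and 27 of histone H3 all 5. edgeR called 0 of these 47 without the block, against 0.00566% of all genes, and 0 with it, against 1.6%. DESeq2 called 0 without the block, against 0.376% of all genes, and 0 with it, against 4.21%. Without the block 1 had an unadjusted p under 0.05 in edgeR, where 3.12% of all genes did, and 0 in DESeq2, against 1.96%. With the block 3 did in edgeR, where 13.4% of all genes did, and 2 in DESeq2, against 5.27%. The 3 were L3MBTL2, a PRC1.6 subunit (-0.34, edgeR q = 0.206), SCMH1, a PRC1 subunit (-0.25, edgeR q = 0.369), and KDM5B, a lysine 4 demethylase (0.42, SE 0.12, edgeR q = 0.184), named after their values were seen. KDM5B had 34.4, 28.96 and 40.3 CPM in WT and 39.5, 48.3 and 50.9 CPM in LSD1 KO, and was higher in each pair. The median log2 fold change was 0.0063 over the 42 subunits (23 positive, 19 negative) and 0.15 over the 5 demethylases (all 5 positive), beside 0.00082 over all genes.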

How the data were processed

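The series holds RNA-seq of 6 HCT116 libraries, 3 WT and 3 LSD1 KO. Per the labels and the study's methods, the authors checked the reads with FastQC, trimmed them with Trimmomatic 0.39 and quantified them with Salmon 1.4.0 on GRCh38. The unit they deposited is expected counts, given for each gene as whole numbers without any scaling. The step from transcripts to genes is not given in the sources used here. The table had 0 unused columns of values.

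The 41 members and the other lists were chosen with earlier results of these data known. CPM, computed here, use TMM factors. Groups were compared with edgeR 4.0.16 in R 4.3.3 (filterByExpr by group, quasi-likelihood test, Benjamini-Hochberg adjustment over 17672 genes, calls at q under 0.1), with DESeq2 1.42.0 as an alternative. Same-numbered WT and LSD1 KO libraries deviated together from their group means (Pearson's r of 0.639, 0.631 and 0.491 across genes, against -0.606 to 0.0756 for other pairs), so by that check the replicate numbers pair the libraries and were also fitted as a block. Across genes the common coefficient of biological variation (edgeR) was 0.279 unblocked and 0.133 blocked. In the blocked fit the same replicate coefficients were tested together for the replicate number. Shares within families were compared with exact permutation tests in Python 3.11.15 with scipy 1.17.1.

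Canonical lengths, GC content and shared 31-base words came from GENCODE v44lift37 on GRCh37, promoters and gene positions from RefSeq on GRCh38.p14. Values in every library were given for members called in edgeR (with or without the block) or DESeq2, for the 10 catalytic subunits, and for the 3 largest rises and the 3 largest falls among members with a mean of at least 1 CPM. CBX2 and BMI1 were given by library outside this rule, after their values were seen. Results were recomputed with RLE and upper-quartile factors, other filters on counts, DESeq2, the block, q under 0.05 and each library left out. The steps were tested on simulated data. ChIP-seq and methylation data of the study were not analysed here.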

Additional observations from a re-analysis of the deposited data

How the results depend on the processing

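No subunit was called under other size factors, other filters, DESeq2, a q under 0.05, the replicate block, or without any 1 library. KDM1A kept its fall, between -3.01 and -2.95 on the log2 scale over 13 alternatives. Over all genes, edgeR called 1 gene, against 114 with no filter on low counts, 95 with DESeq2, 282 with the replicate block, 597 with DESeq2 and the block, 412 with the block and the length and GC correction, and 1 to 26 without 1 library (26 without LSD1 KO replicate 2). With the block and 1 replicate pair left out, chosen after the data were seen, 198 (pair 3) to 1055 (pair 2) genes were called, 428 without pair 1, and 0 (pair 3), 1 (pair 1, PHC3) or 3 (pair 2) subunits. The block with the length and GC correction called 1, SETD1B. The cause was not tested. The count of 26 subunits called for the replicate number was 15 after the length and GC correction and 18 to 27 under the other alternatives.

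Leaving out 1 library moved the log2 fold change over both signs for several uncalled subunits, from -0.25 to 0.34 for KMT2A, -0.20 to 0.12 for KMT2B, -0.25 to 0.23 for KMT2C, -0.48 to 0.12 for KMT2D, -0.093 to 0.19 for SETD1A, -0.0060 to 0.13 for RNF2 and -0.29 to 0.10 for RING1. The 7 other named subunits kept their sign, with ranges of -0.68 to -0.053 for SETD1B, -0.58 to -0.13 for PHF19, -0.43 to -0.18 for BCOR, -0.29 to -0.021 for EZH2, 0.17 to 0.41 for EZH1, 0.080 to 0.27 for CBX7 and 0.076 to 0.40 for PHC3. The lowest values in size came without WT replicate 1 for SETD1B, PHF19, EZH2 and CBX7, without LSD1 KO replicate 3 for EZH1 and PHC3 and without LSD1 KO replicate 2 for BCOR. Differences in share ranged likewise, in percentage points, from -5.53 to 1.72 for KMT2B, -0.239 to 4.92 for KMT2C, -3.95 to 0.518 for RING1, -1.63 to 4.32 for BMI1 with PCGF2 and -1.88 to 0.472 for PHC1. They kept their sign for SETD1B (-9.51 to -0.829), EZH1 (2.41 to 5.51), CBX2 (-3.64 to -2.13) and MTF2 (2.35 to 6.71). Shares of raw counts kept their sign in all 9 families, with CBX2 and MTF2 at p = 0.1 in the exact permutation test in place of 0.2 and 0.4. The replicate block changed no call of a subunit. The lowest level of a subunit in any library was 14.1 CPM, above the floor of 0.0994 to 0.114 CPM. What depth or the number of libraries contributed to the width of the intervals was not tested.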
